A study of Rattus norvegicus with 24 samples.

Results

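The genes described are the solute carriers of the array, the membrane proteins that move sugars, amino acids, anions, vitamins, fatty acids, ions and metals across cell and organelle membranes. They were chosen by name: every probe with a value on 1 or more arrays whose only platform symbol begins with Slc and a digit, apart from Slc12a1, Slc12a2, Slc15a2 and Slc16a7. This gave 29 genes with 1 probe each, out of 1561 probes with a value. The arrays are two-colour cDNA arrays, each hybridised with 2 kidney RNAs of rats kept 2 weeks on low salt (LS) or high salt (HS). The strains are SS, the salt-sensitive rat, and strain 13, an SS rat that carries chromosome 13 of another strain. These readings of the abbreviations come from what is known of the study, and the age of the rats is not given in the sources used here. There were 4 comparisons. They were HS against LS in strain 13, HS against LS in SS, strain 13 against SS on LS, and strain 13 against SS on HS. Both strains carry the SS genome outside the exchanged chromosome, and neither is a wild-type control. None of the 29 solute carriers lies on chromosome 13 by the RefSeq table.

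Solute carriers set what each nephron segment can take up. In the proximal tubule, apical carriers recover amino acids, carnitine and organic anions from the filtrate, and basolateral carriers such as the glucose carrier GLUT2 pass the load to blood. The thick limb and collecting duct rely on other families, and mitochondrial carriers bring phosphate and dicarboxylates into the matrix of every cell. The series title names the renal medulla, whose outer part holds proximal straight tubule, whereas the labels say kidney. Log ratios carry no level, so the tissue could not be checked by the presence of its markers.

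The promoter sequences of 4 members are shown. Slc2a2 was taken because it was the only member called in any comparison. The other 3 are proximal tubule carriers with some of the lowest log ratios in the set. RefSeq promoters of build GRCr8 were used, 250 bases before the annotated start. The windows were chr2:113540120-113540369 (plus strand) for Slc2a2, chr17:41681175-41681424 (minus strand) for Slc17a1, chr3:134257851-134258100 (plus strand) for Slc27a2 and chr1:31436403-31436652 (plus strand) for Slc6a18. Capitals mark a match to GTTAAT, a half-site of the tubule factor HNF1, or to CAAAGTCCA, a core of HNF4 sites, on either strand.
Slc2a2: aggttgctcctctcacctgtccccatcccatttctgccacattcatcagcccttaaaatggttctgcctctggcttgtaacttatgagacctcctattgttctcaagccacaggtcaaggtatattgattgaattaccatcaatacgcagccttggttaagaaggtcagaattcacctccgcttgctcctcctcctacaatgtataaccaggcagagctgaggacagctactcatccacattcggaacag
Slc17a1: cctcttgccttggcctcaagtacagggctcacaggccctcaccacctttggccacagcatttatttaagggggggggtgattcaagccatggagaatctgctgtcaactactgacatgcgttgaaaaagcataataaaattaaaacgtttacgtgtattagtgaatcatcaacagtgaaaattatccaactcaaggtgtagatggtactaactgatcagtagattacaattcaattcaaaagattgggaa
Slc27a2: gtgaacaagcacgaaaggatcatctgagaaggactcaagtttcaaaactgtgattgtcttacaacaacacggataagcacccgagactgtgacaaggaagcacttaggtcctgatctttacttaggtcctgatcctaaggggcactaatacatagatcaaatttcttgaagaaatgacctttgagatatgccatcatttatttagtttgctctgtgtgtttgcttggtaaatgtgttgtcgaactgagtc
Slc6a18: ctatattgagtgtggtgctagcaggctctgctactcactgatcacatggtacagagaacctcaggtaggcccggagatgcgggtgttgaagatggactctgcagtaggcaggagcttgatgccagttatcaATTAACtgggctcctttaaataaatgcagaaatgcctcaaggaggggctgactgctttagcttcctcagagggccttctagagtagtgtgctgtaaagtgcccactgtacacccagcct

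Only the Slc6a18 window held a match, to the HNF1 half-site. Of the 25 members with a promoter in the table, 2 held GTTAAT (Slc6a18 and Slc10a1), against 6.45% of 33469 promoters of the same length. CAAAGTCCA was in 0 of the 25 and in 0.338% of all promoters. A match is a description of letters in the window, and no match says only that the letters are not there.

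Each comparison had 3 replicates, and each replicate was hybridised on a forward and a dye-swap array. Their values were averaged where both were present. Nothing in the labels ties replicates to separate rats. The p-values therefore reflect the spread of these RNA pairs alone, which may be technical. Arrays held 726 to 1402 values, and 13 to 26 values of the 29 solute carriers. Values are the deposited log ratios of unstated base, so no folds are given. Positive values are taken as higher on HS or higher in strain 13. The 4 comparisons close under this reading: across 1164 probes, which are not independent replicates, the difference of the diet ratios correlated with that of the strain ratios at 0.58. Turning 1 diet group, 1 strain group or 1 of each gave -0.23, 0.17 and 0.24. Reversing every comparison together would leave these correlations as they are, and the titles name LS before HS, so the direction is likely but not settled. In SS, 5 of the 6 diet arrays have no strain in their title, and the other one opens as strain 13 but names SS in its channel text. The titles of all 12 strain arrays open as a comparison of diets, whereas their channel text names both strains on 1 diet, and the channel text was followed. Comparisons that share a condition may share its RNA, so their values below are given side by side and not as support for one another.

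Of the 29 solute carriers, 25 were tested in at least 1 comparison, which needed values in 2 of the 3 replicates, and 22 in all 4. On HS, 1 of 24 was called between the strains, Slc2a2, lower in strain 13 (limma, adjusted p below 0.05), where 6.0% of all 1350 probes were called and 2.37% were called lower. On LS 0 of 23 were called (0.0% of all 1229 probes), in strain 13 with diet 0 of 23 (0.0% of 1287) and in SS with diet 0 of 25 (2.82% of 1310). At an unadjusted p below 0.05 the same limma fit gave 8 of 24 for strain on HS (23.1% of all probes), 5 of 23 on LS (21.8%), 1 of 23 for diet in strain 13 (9.25%) and 2 of 25 for diet in SS (19.5%). The median log ratio of the solute carriers was -0.07 on HS, -0.03 on LS, -0.03 for diet in strain 13 and -0.05 for diet in SS. Over all probes tested the medians were 0.02, 0.03, 0.01 and -0.01 in the same order.

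**Figure D1:**
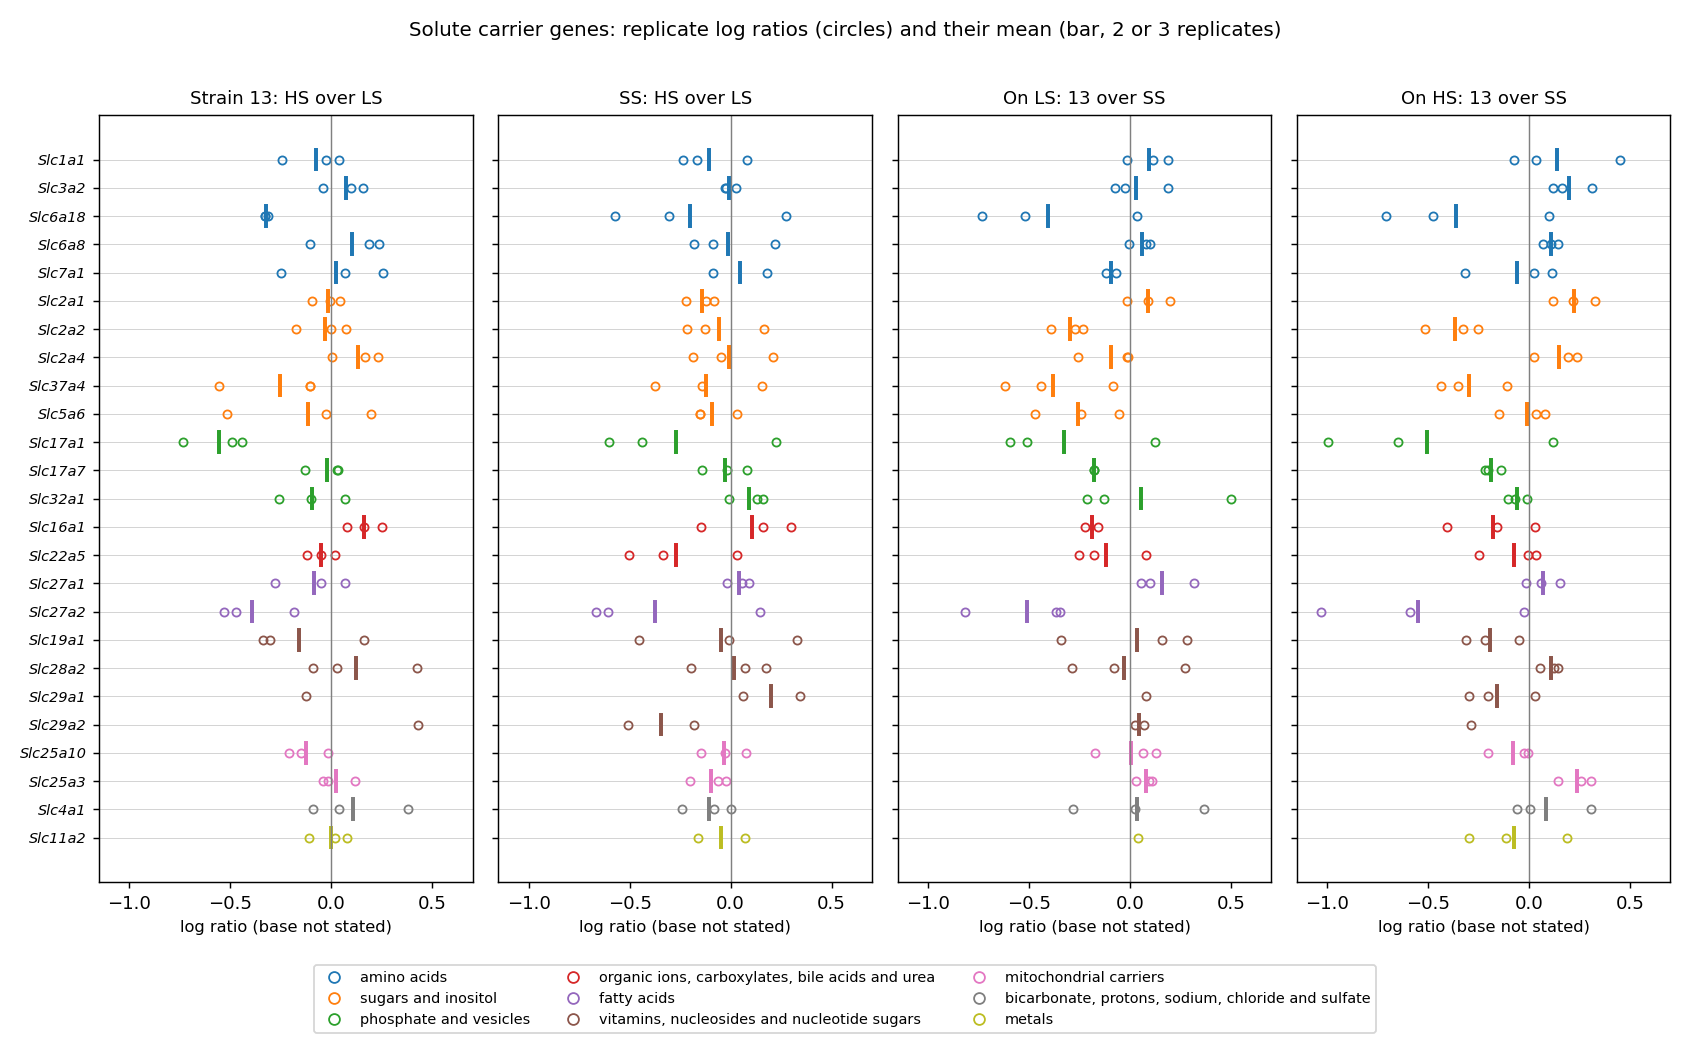
Log ratios (x axis, base not stated) of the 25 tested solute carriers, 1 row per gene, in the 4 comparisons. Circles are replicates, each the mean of a forward and a dye-swap array, or 1 array where only 1 held a value. Bars are the mean of 2 or 3 replicates and colours the transport class. Slc2a2 lies below 0 in all 6 strain replicates, and Slc17a1 and Slc27a2 have the widest spread between strains on HS.

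Among the sugar carriers, Slc2a2 encodes GLUT2, the glucose exit route of proximal tubule, liver and islet cells. On HS its strain ratio was -0.515, -0.33 and -0.255 in replicates 1 to 3, and on LS -0.27, -0.23 and -0.39. All 6 replicates were lower in strain 13, and the ranges of the 2 diets overlapped. The mean was -0.37 ± 0.13 (SD, n = 3) on HS, with a limma adjusted p = 0.0319. It was -0.30 ± 0.08 (n = 3) on LS, with an adjusted p = 0.105, which did not pass. Diet gave 0.075, -0.175 and 0 in strain 13 and 0.165, -0.125 and -0.215 in SS, on both sides of 0. Of these 4 comparisons, strain on HS was the one in which Slc2a2 passed the test.

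The Slc2a2 call rested on the whole set of HS replicates. Its limma adjusted p was 0.241 without replicate 1, 0.0845 without replicate 2 and 0.0753 without replicate 3, and it was 0.0569 in the fit with a replicate block, 0.105 with the 3 values fitted alone and 0.0942 with arrays scaled to equal spread. On the 3 dye-swap arrays of HS the values were -0.83, -0.77 and -0.54, and on the forward arrays -0.2, 0.11 and 0.03. The dye-swap arrays were also the lower ones on LS (-0.35, -0.32 and -0.7 against -0.19, -0.14 and -0.08) and for diet in strain 13, where all 3 forward arrays were above 0 and all 3 dye-swap arrays below. A difference between orientations that is the same for every array cancels in the replicate mean. Over all alternatives the adjusted p ran from 0.00079 with dye-swap arrays only to 0.932 with forward arrays only, with the ratio below 0 in each.

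Titles of strain arrays hold a date whose meaning they do not state. Replicates 1 and 2 on HS share one date, and replicate 3 on HS shares another with replicate 3 on LS. Within the date that holds both diets Slc2a2 was -0.255 on HS and -0.39 on LS, and within the other date on HS it was -0.515 and -0.33.

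Slc2a1, the glucose carrier GLUT1 of distal segments and vessels, had strain ratios of 0.325, 0.12 and 0.215 on HS, opposite to those of Slc2a2. All 3 were above 0, with a mean of 0.22 ± 0.10 (n = 3, limma adjusted p = 0.082), which did not pass. On LS it was 0.09, -0.015 and 0.20, and on HS against LS in SS -0.22, -0.08 and -0.12 (adjusted p = 0.276). In strain 13 diet gave -0.095, 0.045 and -0.005. Slc2a4, the insulin-responsive carrier GLUT4, had 0.19, 0.235 and 0.025 between strains on HS and -0.255, -0.01 and -0.015 on LS.

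Slc37a4 carries glucose 6-phosphate into the endoplasmic reticulum of cells that make glucose. It was below 0 in 11 of 12 RNA pairs, as was Slc27a2. That count joins diet and strain comparisons, which may share RNAs, and it was not taken over all probes. Between strains on LS Slc37a4 had -0.62, -0.085 and -0.44 (mean -0.38 ± 0.27, n = 3, limma adjusted p = 0.123). On HS it had -0.355, -0.435 and -0.11 (limma adjusted p = 0.189). In strain 13 diet gave -0.105, -0.555 and -0.105, and in SS 0.155, -0.14 and -0.375. Slc5a6, which belongs to the sodium-glucose family but carries the vitamins biotin and pantothenate, had strain means of -0.26 ± 0.21 on LS and -0.01 ± 0.12 on HS. Of the 5 members of these families, 4 lay below 0 on LS and 3 on HS, and 5 of 5 below 0 for diet in SS. For diet in SS none was called, and Slc2a4 was at -0.0067. Over all probes 548 of 1229 lay below 0 on LS, 609 of 1350 on HS and 677 of 1310 for diet in SS.

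Slc27a2 and Slc17a1 had the lowest means between strains on HS among the 24 solute carriers tested. Slc27a2 activates and takes up long-chain fatty acids in liver and proximal tubule. Its strain ratios were -1.03, -0.025 and -0.59 on HS and -0.345, -0.365 and -0.815 on LS. All 6 were below 0, though replicate 2 on HS was close to it. The means were -0.55 ± 0.50 (n = 3, limma adjusted p = 0.116) and -0.51 ± 0.27 (n = 3, adjusted p = 0.143). Diet in strain 13 gave -0.185, -0.53 and -0.47, and in SS 0.145, -0.605 and -0.665, so that replicate 1 of SS stood above 0 and both others below. Slc27a1, the related carrier of muscle and fat, had small ratios of 0.155, -0.015 and 0.06 on HS and 0.32, 0.10 and 0.055 on LS.

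Slc17a1 encodes a sodium-phosphate family protein of the proximal brush border that carries urate and other organic anions. Diet in strain 13 gave -0.49, -0.44 and -0.735, all below 0, and its mean of -0.56 ± 0.16 (n = 3) was the lowest of the 23 solute carriers tested there, with a limma adjusted p = 0.461. In SS it was 0.225, -0.60 and -0.44. Between strains it was -0.995, 0.12 and -0.65 on HS and -0.51, 0.125 and -0.595 on LS, with replicate 2 above 0 on both diets. The mean on HS was -0.51 ± 0.57 (adjusted p = 0.168). The vesicular carriers of the same class are known from neurons. Slc17a7, for glutamate, had -0.205, -0.22 and -0.14 on HS, and Slc32a1, for GABA and glycine, had -0.07, -0.105 and -0.01.

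Amino acid carriers differed among themselves. Slc6a18 moves neutral amino acids at the brush border of proximal straight tubule. Diet in strain 13 gave -0.315, -0.33 and -0.33, the smallest spread of any member tested there (mean -0.33 ± 0.01, n = 3) and a limma adjusted p = 0.619. The fit takes 1 spread per gene over all 4 comparisons, and the SD of Slc6a18 was 0.43 in SS, 0.40 on LS and 0.42 on HS. In SS it had 0.275, -0.57 and -0.305, on LS between strains -0.73, 0.035 and -0.52 and on HS -0.71, 0.10 and -0.475. Slc3a2, the heavy chain shared by several amino acid exchangers, stood the other way on HS, at 0.31, 0.165 and 0.12 (mean 0.20 ± 0.10, n = 3, adjusted p = 0.124). On LS it was -0.025, 0.19 and -0.075. Slc1a1, the glutamate carrier of the proximal brush border, had -0.075, 0.45 and 0.035 on HS and 0.115, 0.19 and -0.015 on LS. Slc6a8, for creatine, had 0.07, 0.145 and 0.11 on HS, and Slc7a1, for arginine and lysine, 0.115, -0.32 and 0.025.

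Slc22a5, the carnitine carrier OCTN2, was the member with the lowest p for diet in SS. Its ratios there were 0.03, -0.335 and -0.505 (mean -0.27 ± 0.27, n = 3, limma adjusted p = 0.183). It passed without replicate 1, at -0.42 with an adjusted p = 0.0486, and its adjusted p in SS under the other alternatives ran from 0.0748 to 0.604. In strain 13 diet gave -0.05, 0.02 and -0.12. Slc16a1, the lactate and pyruvate carrier MCT1, had 0.08, 0.25 and 0.16 with diet in strain 13 and 0.16, 0.30 and -0.145 in SS. All 3 strain 13 values were above 0, and those of SS were not, from which no difference between strains is read. In strain 13, replicates 1 and 2 came from dye-swap arrays alone, so a dye difference is not averaged out of them. Replicate 3 there joins 0.5 on the forward array and -0.18 on the dye-swap array.

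Of the 2 mitochondrial carriers, Slc25a3 brings phosphate into mitochondria for ATP synthesis. It was higher in strain 13 in all 6 replicates, with 0.305, 0.255 and 0.145 on HS and 0.03, 0.11 and 0.095 on LS. Those LS values join a mean of 0.29 on forward arrays and -0.13 on dye-swap arrays. On HS its mean of 0.24 ± 0.08 (n = 3) had a limma adjusted p = 0.0505, which did not pass. It had an adjusted p = 0.0486 where only probes with values in all 3 replicates were tested. In SS diet gave -0.06, -0.20 and -0.025 and in strain 13 -0.015, -0.04 and 0.12. Slc25a10, the dicarboxylate carrier, averaged -0.08 ± 0.11 on HS, which joins -0.51 on forward arrays and 0.35 on dye-swap arrays.

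The remaining families had small or scattered values. Slc19a1, the reduced folate carrier, had strain ratios of -0.315, -0.22 and -0.05 on HS and 0.285, 0.16 and -0.34 on LS. Its LS replicate 1 joins 0.9 on the forward array, which is flagged below, and -0.33 on the dye-swap array. Replicate 2 on LS had a forward value only and replicate 3 a dye-swap value only. The nucleoside carrier Slc28a2 had 0.125, 0.055 and 0.145 on HS. Slc29a2, another nucleoside carrier, had values for diet in SS in 2 replicates only, -0.51 and -0.18 (limma adjusted p = 0.199). Both came from forward arrays alone, so a dye difference is not averaged out of them. Between strains on LS Slc29a2 was -0.39 on its forward array and averaged 0.255 on dye-swap arrays. Slc29a1 had 0.06 and 0.345 for diet in SS. Slc4a1, the anion exchanger of red cells and intercalated cells, had 0.305, 0.005 and -0.06 on HS and 0.365, 0.025 and -0.28 on LS, on both sides of 0. The 2 blood markers with a value in all pairs averaged 0.14, 0.16 and 0.11 on HS and 0.03, 0.03 and 0.03 on LS, and their part in the Slc4a1 values was not tested. Slc11a2, the iron carrier DMT1, had 0.185, -0.30 and -0.115 on HS.

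Too few values were held by 4 members for any test. Slc6a4, the serotonin carrier, and Slc1a2, a glutamate carrier of brain, each had a value on 1 array, 0.08 and 0.55, both for diet in strain 13. Slc10a1, the bile acid carrier of liver, had 0.43 on LS and 0.55 on HS between strains, each from 1 replicate. Slc4a4, the basolateral sodium bicarbonate carrier of proximal tubule, had 0.62 and -1.03 for diet in strain 13 and in SS, and -0.685 and -0.06 between strains on LS and on HS, each from 1 replicate. No reading is given of these single values.

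The diet change was compared between the strains in the same fit, averaging the estimate from the diet arrays with that from the strain arrays. Of 22 solute carriers tested 0 were called (limma, 0.43% of all 1164 probes), and 1 had an unadjusted p below 0.05, against 15.6% of all probes. That 1 was Slc2a4, at 0.19 (adjusted p = 0.316). Slc25a3 had 0.14 (adjusted p = 0.324), Slc2a1 0.13 (adjusted p = 0.378) and Slc3a2 0.13 (adjusted p = 0.397). Slc2a2 had -0.02 (adjusted p = 0.915). Its estimates may share RNAs, which the fit takes as independent.

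Set beside 11 proximal tubule markers were 7 carriers known from proximal tubule, each with a value in all 12 RNA pairs. None of the markers is a solute carrier. These 7 were Slc2a2, Slc17a1, Slc27a2, Slc6a18, Slc37a4, Slc22a5 and Slc1a1, chosen by their known site and with earlier results of these data known. In SS, 0 of 7 were below 0 in replicate 1 (median 0.155), and 7 of 7 in replicates 2 and 3 (medians -0.335 and -0.375). The marker medians were 0.285, -0.42 and -0.47 in the same replicates. Between strains on HS, 7, 4 and 5 of the 7 were below 0, with medians of -0.515, -0.005 and -0.255. The marker medians there were -0.765, -0.035 and -0.415. On LS the carrier medians were -0.345, -0.085 and -0.44 and the marker medians -0.23, -0.13 and -0.44. In strain 13 the carrier medians were -0.185, -0.33 and -0.12 and the marker medians -0.01, -0.425 and -0.41. The carriers and the markers were thus high in the same RNA pair of SS. Both medians stood closest to 0 in replicate 2 of the strain comparisons. For diet in strain 13 they differed, with the carrier median closest to 0 in replicate 3 and the marker median in replicate 1.

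**Figure D2:**
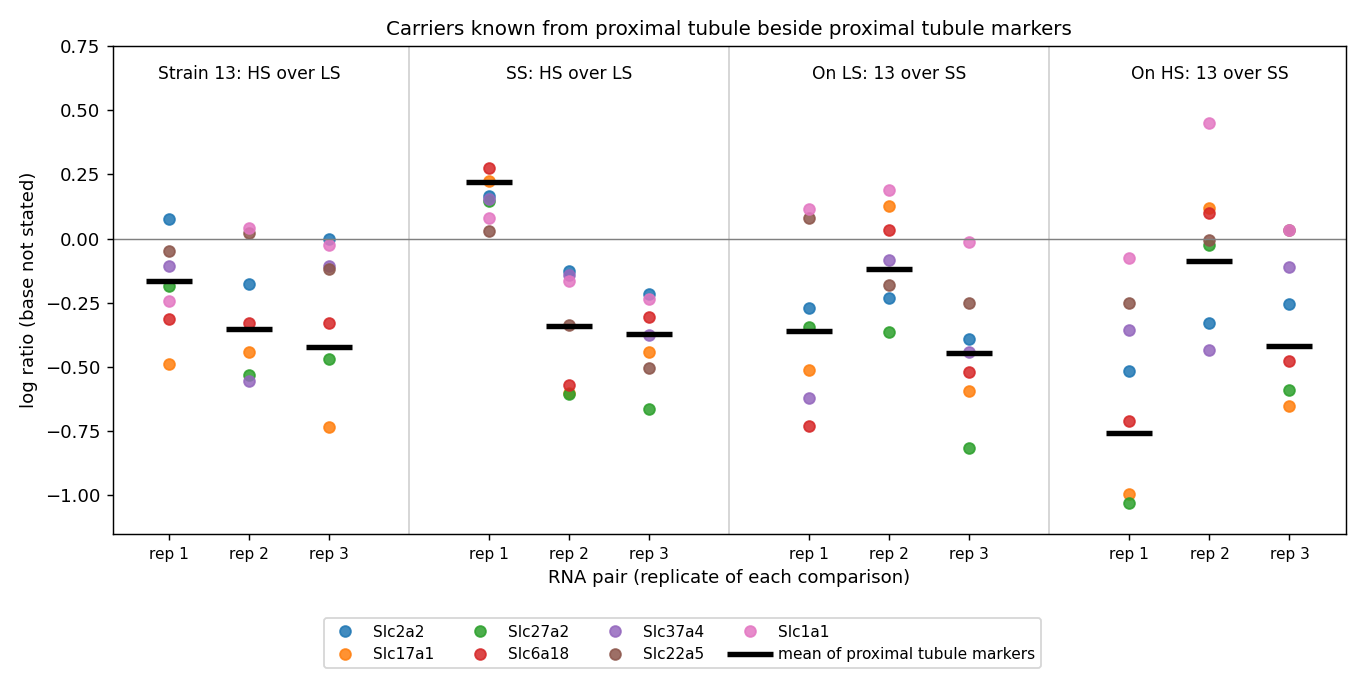
Log ratios (y axis, base not stated) of 7 carriers known from proximal tubule in each of the 12 RNA pairs (x axis). Black bars are the mean of 11 proximal tubule markers in the same pair. All 7 carriers lie above 0 in replicate 1 of SS and below 0 in its other replicates, as the marker mean does.

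Of the 12 proximal tubule markers, 2 of 11 tested on HS passed as lower in strain 13, and 11 of 11 lay below 0 (median -0.38). On LS 0 of 12 passed and 12 of 12 lay below 0 (median -0.24). Among the 7 carriers 6 lay below 0 on each diet, with medians of -0.36 on HS and -0.33 on LS. Among the other solute carriers tested, 9 of 17 lay below 0 on HS (median -0.01) and 6 of 16 on LS (median 0.03). The split rests on how the 7 were chosen. Slc3a2 and Slc6a8, above 0 in every HS replicate, were placed with the others. Over all probes 609 of 1350 lay below 0 on HS and 548 of 1229 on LS. In bulk RNA, fewer proximal tubule cells and less RNA per cell cannot be told apart, and the part of tubule content in the carrier values was not tested. In replicate 2 on HS the marker mean was -0.09. The carriers there were Slc37a4 -0.435, Slc2a2 -0.33, Slc27a2 -0.025, Slc22a5 -0.005, Slc6a18 0.10, Slc17a1 0.12 and Slc1a1 0.45. The forward and dye-swap arrays of that pair gave 0.11 and -0.77 for Slc2a2 and -0.15 and -0.72 for Slc37a4. They gave -0.27 and 0.47 for Slc6a18 and -0.23 and 0.47 for Slc17a1. The 4 collecting duct markers averaged 0.44, 0.33 and 0.31 on HS and 0.28, 0.28 and 0.21 on LS.

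All replicates on one side of 0 were counted as a description. Below 0 in all 6 strain replicates were 3 of 19 solute carriers with values in each (Slc2a2, Slc27a2 and Slc37a4), and 8.12% of 1047 probes. Above 0 in all 6 was 1 of 19 (Slc25a3), and 13.8% of all probes. For diet in strain 13 it was 5 of 23 below (15.8% of 1183) and 2 of 23 above (15.7%). In SS it was 2 of 21 below (19.5% of 1179), Slc25a3 and Slc2a1, and 0 of 21 above (22.1%).

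The orientations differed for several members. Of the 22 solute carriers with all 6 HS strain arrays, 6 had every forward array on one side of 0 and every dye-swap array on the other, against 24.3% of 1057 probes. They were Slc11a2, Slc25a10, Slc27a1, Slc32a1, Slc4a1 and Slc5a6. On LS this was 0 of 12 (8.54% of 656 probes), in SS 3 of 18 (11.5% of 785) and in strain 13 2 of 14 (10.9% of 880), Slc25a3 and Slc2a2. For Slc25a3 between strains on HS, forward and dye-swap arrays gave 0.21 and 0.26, and for Slc2a1 0.27 and 0.17. For Slc37a4 on HS they gave -0.04 and -0.56, and for Slc17a1 -0.75 and -0.27. Both orientations on HS were above 0 for Slc25a3, Slc2a1 and Slc3a2 (0.11 and 0.28). There the sign of the mean does not depend on which dye was used. For Slc25a3 on LS they gave 0.29 and -0.13, so its sign there differed between orientations.

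**Figure D3:**
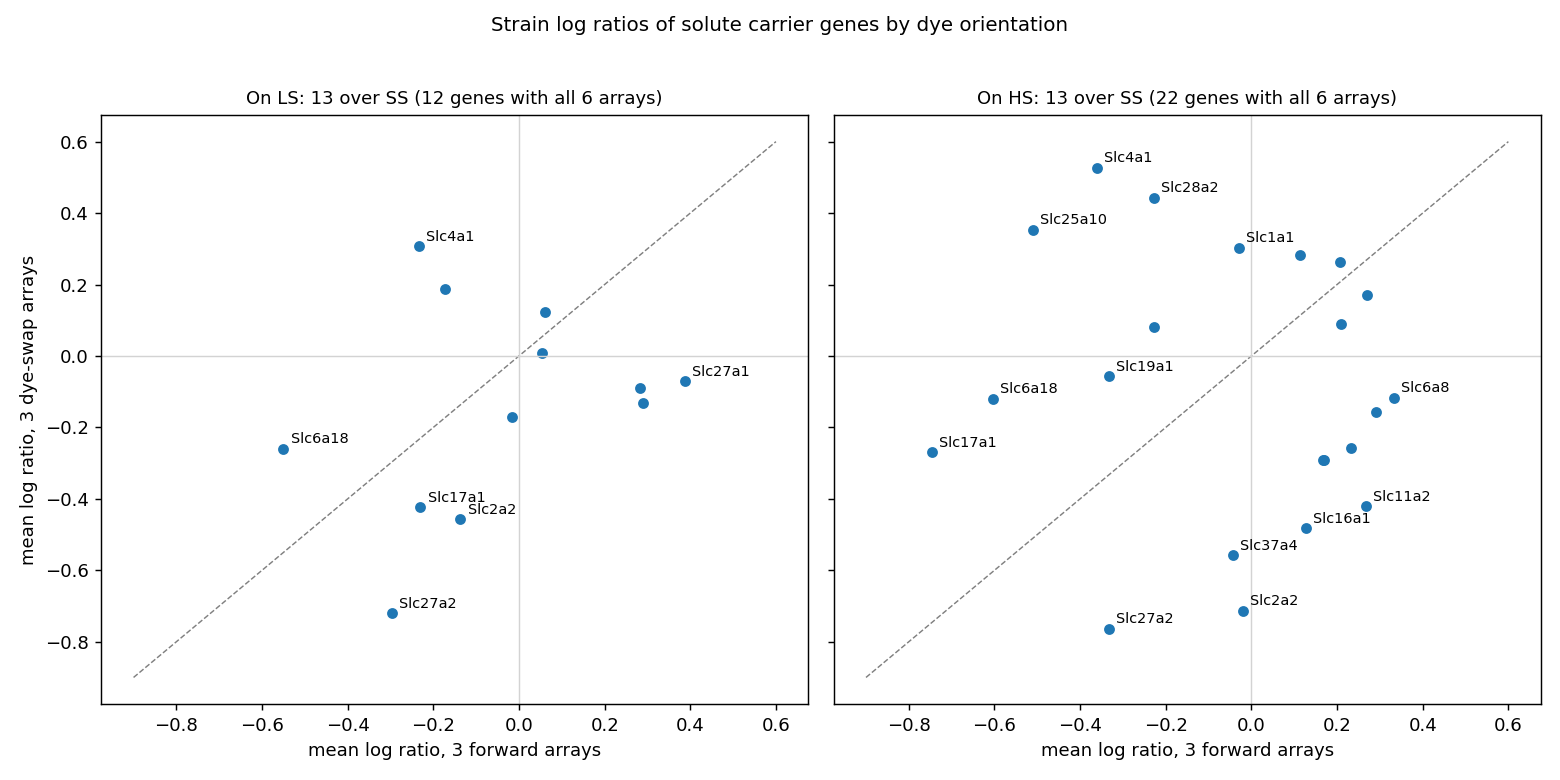
Mean log ratio between strains on the 3 forward arrays (x axis) and the 3 dye-swap arrays (y axis) for solute carriers with all 6 arrays, on LS and on HS (base not stated). Points on the dashed line have equal values in both orientations, and genes are named where either mean is over 0.3 from 0. On HS, Slc2a2 is at -0.02 and -0.71, and Slc25a10 at -0.51 and 0.35.

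For comparison, 20 other membrane transport genes were read from a list of pumps, channels, ABC transporters, the organic anion carrier Slco1a4 and the 4 solute carriers left out. On HS 4 of 20 were higher in strain 13 and 0 lower (limma), namely the sodium pump genes Atp1b1 and Fxyd4, the sodium channel subunit Scnn1a and the water channel Aqp3. Over all 1350 probes 3.63% were called higher there. On LS 0 of 19 passed, for diet in strain 13 0 of 18, and in SS 1 of 18, Slc16a7, which was lower on HS. Their median between strains on HS was 0.07, against -0.07 for the 24 solute carriers tested, and the difference was not tested. Fxyd4, Scnn1a and Aqp3 are also among the 4 collecting duct markers given above, so their values are not a separate result.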

How the data were processed

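Kidney RNA pairs were measured on 24 two-colour cDNA arrays, 6 for each of 4 comparisons. Deposited values compare the 2 channels as log ratios, and the sources used here give no log base, background correction or normalization. Array means lay within 0.0049 of 0, and values were used as deposited. Probes were named by the platform annotation, updated by gene identifier through RefSeq of assembly GRCr8, which was used for names, chromosome membership and promoters. All 29 members had a current symbol.

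Forward and dye-swap arrays were averaged per replicate, and where only 1 of them held a value it stood alone. limma 3.58.1 in R 4.3.3 fitted 4 group means to 12 RNA pairs over all probes with values in at least 2 of 3 replicates, with two-sided tests against 0 and Benjamini-Hochberg adjustment over all probes tested (threshold 0.05). The scripts were tested on simulated data. The alternatives were leaving out each replicate, a replicate block, each comparison alone, array scaling and centring, single orientations, other filters on missing values and leaving out 3 single arrays. Genes named with a test are those called, the 4 with the lowest p in each comparison and the best measured of each transport class, and the others are given by their values. One strain 13 diet array had no replicate number and was taken as the forward array of replicate 1. The members and lists were chosen with earlier results of these data known. The number of arrays limits the precision.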

Additional observations from a re-analysis of the deposited data

Results flagged for a closer look

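On LS, 1 strain array stood apart, the forward one of replicate 1. It had 726 values where the next fewest in its group was 1099, and its SD was 0.474 where the next highest was 0.318. It held 13 of the solute carrier values, against 21 on the next lowest. Slc37a4 and Slc5a6 had no value on it, so their replicate 1 values on LS (-0.62 and -0.47) come from the dye-swap array alone. The forward array of replicate 3 on HS held the most solute carrier values of its group, 26 against 24. In all, 12 such sets of 6 arrays were examined, of which chance would single out about 1 in 20.

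Slc2a4 was below 0 in all 3 replicates between strains on LS (mean -0.09 ± 0.14, n = 3) and above 0 in all 3 on HS (0.15 ± 0.11, n = 3), a difference of -0.243 for LS minus HS. The contrast of the diet change between strains, which holds this difference and that of the diet arrays, was 0.19 with a limma adjusted p = 0.316, so the difference did not pass the test.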

How the results depend on the processing

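Of the 776 values of named solute carriers under alternatives, 759 kept their side of the threshold, 10 passed newly, 7 no longer passed and 0 changed sign while called. The 7 are all Slc2a2 on HS. Signs changed in 51 of the 759, none of them called. The count of solute carriers called on HS was 1 and became 0 to 0 when single replicates were left out, 0 with the replicate block, 0 with the comparison fitted alone, 0 with arrays scaled to equal spread, 3 with forward arrays, 8 with dye-swap arrays and 2 where values in all 3 replicates were asked for. On LS it became 1 with forward and 2 with dye-swap arrays, and in SS it ran from 0 to 1 over the replicates left out.

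Counts over all probes moved too. In SS, 37 became 0 to 57 over replicates left out, 0 fitted alone, 118 on forward and 62 on dye-swap arrays, and 60 without the SS diet array whose title opens as strain 13. On HS, 81 became 0 to 19, 44 with the replicate block, 0 fitted alone, 20 with equal spread, 127 on forward and 411 on dye-swap arrays. On LS, 0 became 0 to 1, 20 with equal spread, and 70 and 51 on single orientations, and in strain 13, 15 and 3 on single orientations. The interaction count of 5 became 0 to 10, 8 with the block, 0 fitted alone, 2 with equal spread, 13 and 12 on single orientations, 17 for complete values, 12 without that SS diet array, 2 without the unnumbered array and 2 without the array with few values. Counts on a single orientation keep any dye difference that the mean of both orientations would cancel. Between comparisons, the forward minus dye-swap difference correlated at a median of 0.585, and the sum of both orientations at a median of 0.329. The cause of the moved counts was not tested.

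Same-numbered deviations correlated above 0.1 in every replicate only for the diet comparisons of both strains (0.169 to 0.213, each best with its own number) and ran from -0.628 to -0.294 for SS diet and strain on HS. Channel texts name the same SS RNA on HS in replicate 3 of those 2, where the value was -0.294. That RNA enters their ratios with opposite signs, so a negative value is what shared RNA would give. Replicates 1 and 2 had -0.628 and -0.563. The other pairs of comparisons had mixed signs. Among them, SS diet and strain on LS had 0.405 in replicate 3, where channel texts name the same SS RNA on LS. In replicates 1 and 2 they had -0.028 and -0.192. The main fit takes all RNA pairs as independent, and sharing of RNAs between comparisons was not modelled. The median of the solute carriers moved by over 1 SD between replicates in 9 of 61 cases, 7 of them for diet in strain 13 and the others on single orientations for strain on HS.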
